A study of Vitis vinifera with 2 samples.

Results

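Superoxide dismutases, catalase, ascorbate peroxidase and dehydroascorbate reductase remove reactive oxygen in plant cells, and 5 grape (Vitis vinifera) genes for such enzymes are described here. They are the genes that the deposited transcript tables name MNSOD, SODCP, GCAT, APX and DHAR, chosen by name, 5 of 30485 genes in the tables. Together they hold 7 of 53908 transcript models. The Y. lipolytica group was wounded grape tissue given 10 µL of Yarrowia lipolytica, a yeast, in suspension. The control group was wounded grape tissue given sterile water in equal volume. The incubator stood at 20 °C for both, and tissue was sampled 3 days after treatment; each group is 1 RNA library. The yeast is entered as strain for the control as well, so groups follow the sample titles. The labels give no cultivar, no tissue beyond the wound and no count of berries. With 1 library per group there was no replicate check, no test was made, and no difference below can be ascribed to the treatment over variation between wounds.

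Superoxide, formed where electrons leak from mitochondria and chloroplasts and by NADPH oxidases at the cell surface, is converted by superoxide dismutases to hydrogen peroxide. Catalase splits the peroxide in peroxisomes. Ascorbate peroxidase reduces it with ascorbate, and dehydroascorbate reductase uses glutathione to turn the oxidised form of ascorbate back into ascorbate. Bursts of superoxide and peroxide are known from wounded plant tissue and from plant cells that meet microbes.

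All 5 genes had lower FPKM (fragments per kilobase of transcript, scaled to library size) in the Y. lipolytica library than in the control library, but the median gene was lower there too. DHAR lay well below that median, at 0.547 times the control. APX was at 0.362 times, on few fragments, and reached an FPKM of 1 in the control library only. MNSOD and SODCP lay slightly below it, at 0.755 and 0.745 times, and GCAT lay on it, at 0.799 times. The median FPKM ratio over 16040 measured genes, those that reached an FPKM of 1 in at least 1 library, was 0.800. In bulk tissue, fewer cells of a type and less RNA per cell cannot be told apart.

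Depth was 20540965 fragment equivalents in the Y. lipolytica library and 19010746 in the control library. Of the berry markers, the ripening genes GRIP4 (8709 and 9967 FPKM in the Y. lipolytica and control libraries) and GRIP22 (439.5 and 794 FPKM) were abundant in both. A further ripening gene, MRIP1, stood at 2750.3 FPKM in the Y. lipolytica library and 581 FPKM in the control library, 4.73 times the control, though its ratio in aligned bases, not scaled to depth, was 18.3, so its value is uncertain. The skin colour markers UFGT (1.17 and 1.94 FPKM) and LOC100853472, synonym MybA1 (0.597 and 2.81 FPKM), and the photosystem gene PSBP1 (0.988 and 1.07 FPKM) were near the measuring limit in both. GRIP22 was lower in the Y. lipolytica library, at 0.554 times the control (0.539 to 0.569), as was LOC100853472, at 0.213 times (0.0791 to 0.493). UFGT was at 0.603 times (0.387 to 0.928), an interval that holds the median ratio of all genes. GRIP4 was at 0.874 times and PSBP1 at 0.927 times (0.497 to 1.73). The reference gene UBC2 had 219 FPKM in the Y. lipolytica library and 222 FPKM in the control library, a ratio of 0.985 (0.943 to 1.03). The part of these markers in the results was not tested.

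The 5 genes stood in the same order of level in both libraries. MNSOD was highest, followed by DHAR, SODCP, GCAT and APX, and MNSOD was 702 times APX in the Y. lipolytica library and 337 times in the control library. MNSOD held 87.7% of the FPKM summed over the 5 genes in the Y. lipolytica library and 85.5% in the control library. DHAR and SODCP were the closest neighbours in this order, with DHAR 1.18 times SODCP in the Y. lipolytica library and 1.60 times in the control library. The 95% Poisson intervals of these levels did not overlap in either library: they were 37.7 to 43.5 FPKM for DHAR and 31.8 to 37.2 FPKM for SODCP in the Y. lipolytica library, and 70.1 to 78.3 and 43.0 to 49.6 FPKM in the control library. All intervals cover counting error only, and reads without molecular identifiers are not independent molecules.

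**Figure D1:**
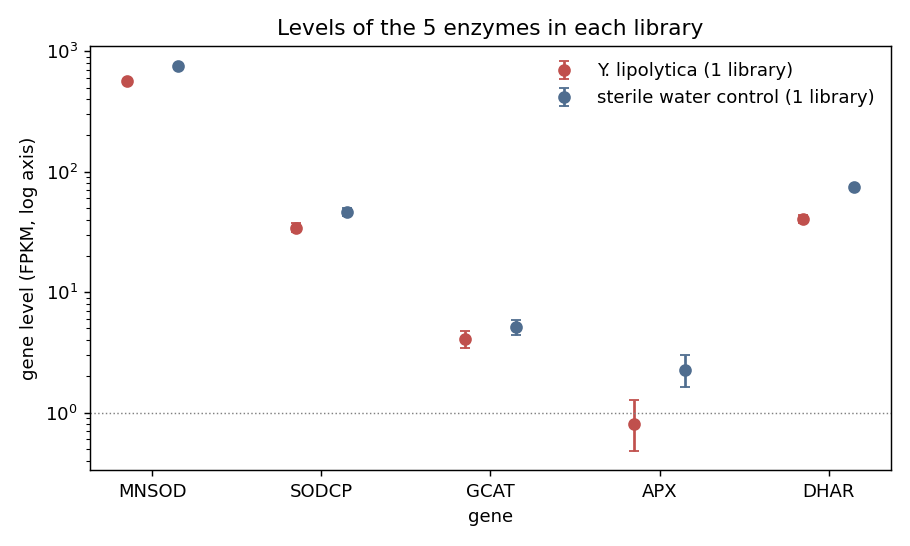
Gene level in FPKM, on a log axis, of the 5 enzymes in the Y. lipolytica library and the sterile water control library, 1 library each; bars are 95% Poisson counting intervals and the dotted line is the FPKM of 1 used as measuring limit. Each gene is lower in the Y. lipolytica library, with the widest gap at APX (0.810 against 2.24 FPKM).

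MNSOD, a manganese superoxide dismutase of the kind found in mitochondria, stood at 569 FPKM in the Y. lipolytica library and 754 FPKM in the control library. It ranked 166th and 107th of 16040 genes by FPKM in these libraries, within the top 1.03% and 0.667%. Its single transcript model, of 6 exons and 867 bases, was read 3605 times per base in the Y. lipolytica library and 4449.7 times in the control library. The FPKM ratio was 0.755, with a 95% counting interval of 0.736 to 0.775. That interval lies below the median ratio of all genes by a small margin, with MNSOD at 0.944 times the median gene (0.920 to 0.968). Among genes whose higher FPKM was 100 or more, a class that holds MNSOD, the median ratio was 0.889.

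SODCP, which has the RefSeq synonym CSD2, the name of the plastid copper-zinc superoxide dismutase in Arabidopsis, stood at 34.4 FPKM in the Y. lipolytica library and 46.2 FPKM in the control library. Its ratio was 0.745 (0.669 to 0.829), an interval that holds the median ratio of all genes. The superoxide dismutases thus differed from the control library by nearly the same factor, although their levels are far apart. MNSOD was 16.5 times SODCP in the Y. lipolytica library and 16.3 times in the control library, and the ratio of MNSOD over that of SODCP was 1.01 (0.908 to 1.13).

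GCAT, a catalase by its RefSeq synonym CAT, stood at 4.08 FPKM in the Y. lipolytica library and 5.11 FPKM in the control library, from 151 and 176 fragment equivalents. Its ratio of 0.799 (0.639 to 0.999) was 0.999 times that of the median gene (0.798 to 1.25), so at this depth no departure of GCAT from the bulk of genes was detectable.

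APX, an ascorbate peroxidase, was the least abundant, at 0.810 FPKM in the Y. lipolytica library and 2.24 FPKM in the control library. These levels rest on 18.2 and 45.4 fragment equivalents. The gene counts as measured through the control library alone. Its FPKM ratio was 0.362 (0.197 to 0.638), or 0.452 times that of the median gene (0.246 to 0.797). APX was the only one of the 5 at or below a plain FPKM ratio of 0.5, where 10.7% of all measured genes lay.

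APX has 2 transcript models. The model of 1024 bases held 80.5% of its FPKM in the Y. lipolytica library and 97.3% in the control library. It stood at 0.652 FPKM in the Y. lipolytica library and 2.18 FPKM in the control library, a ratio of 0.299 (0.151 to 0.556). The longer model of 1216 bases stood at 0.158 and 0.0596 FPKM, from 4.06 and 1.43 fragment equivalents, and its counting interval ran from 0.263 to 131 times the control, so its direction was not detectable at this depth. None of the 6 models of the 5 genes that reached an FPKM of 1 was 2-fold lower or higher on the log2 scale with a pseudocount of 1, where 7.21% and 8.08% of 23481 measured transcripts were. Both models of APX have 10 exons and overlap over the whole of the shorter one, so the division of fragments between them is uncertain.

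DHAR, the dehydroascorbate reductase, stood at 40.5 FPKM in the Y. lipolytica library and 74.1 FPKM in the control library, from 748 and 1274 fragment equivalents. Its ratio was 0.547 (0.499 to 0.599), or 0.683 times that of the median gene (0.624 to 0.749). By rank, DHAR was 2879th of 16040 genes in the Y. lipolytica library and 1725th in the control library. No other of the 5 genes combined a ratio this low with a comparable depth.

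In the tables DHAR consists of 2 loci on the same strand, 1272 bases apart. The spliced model, of 6 exons and 874 bases, held 99.0% of the gene's FPKM in the Y. lipolytica library and 98.5% in the control library, at 40.1 and 73.0 FPKM. Its own ratio was 0.550 (0.501 to 0.603). A single-exon assembled model of 870 bases, downstream of the spliced one in the direction of transcription, stood at 0.404 and 1.13 FPKM, a ratio of 0.357 (0.127 to 0.887). The single-exon model reached an FPKM of 1 in the control library only, on 7.42 and 19.4 fragment equivalents in the Y. lipolytica and control libraries. Its interval holds the median ratio of all genes, so no departure of this locus from the bulk of genes was detectable. The ratio of the gene is nearly that of the spliced model.

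On the log2 scale with a pseudocount of 1, which understates differences of low genes, none of the 5 genes was 2-fold higher or lower. Of all measured genes, 6.26% were 2-fold higher and 3.66% were 2-fold lower on this scale, 1004 and 587 genes. Of the genes past 2-fold, 63.1% were higher, or 82.7% (1379 higher and 288 lower) after rescaling to a median log2 ratio of 0. All 5 genes had a log2 ratio below 0, as had 73.5% of all measured genes. All but GCAT lay below the median of all genes, where 50% of genes lie by construction. The median log2 ratio of the 5 genes was -0.41, against -0.28 over all measured genes.

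DHAR had a log2 ratio of -0.85, which 6.65% of all measured genes lay at or below. Among genes that reached an FPKM of 10 this share was 4.85%. APX had a log2 ratio of -0.84, at percentile 7.11 of all measured genes. This is a description only, since APX counted as measured through the control library alone. MNSOD at -0.40, SODCP at -0.41 and GCAT at -0.27 lay at percentiles 36.0, 34.9 and 51.2, well inside the middle of the distribution, whose quartiles were -0.52 and 0.03. The median ratio depended on level: it was -0.32 over 7710 genes whose higher FPKM was between 1 and 10, -0.26 over 6845 genes between 10 and 100, and -0.17 over 1485 genes at 100 or more. MNSOD, in the class of 100 or more, lay below the lower quartile of that class (-0.38).

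**Figure D2:**
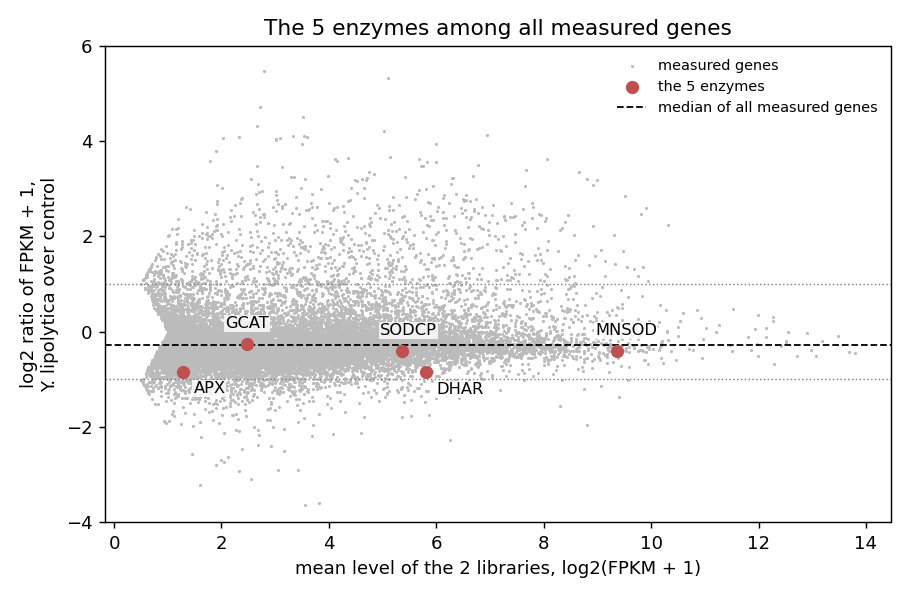
Log2 ratio of FPKM + 1, Y. lipolytica over control, against the mean level of both libraries in log2(FPKM + 1), for 16040 measured genes (grey; 6 lie outside the axis) and the 5 enzymes (red). MNSOD, SODCP and GCAT sit at or near the dashed median of -0.28, while APX (-0.84) and DHAR (-0.85) sit near the lower of the dotted 2-fold lines.

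Each of 10 pairs was compared by dividing their ratios, with an exact conditional interval on fragment equivalents and no adjustment over the pairs. MNSOD, SODCP and GCAT were not told apart by these intervals, with GCAT over MNSOD at 1.06 (0.845 to 1.33) and GCAT over SODCP at 1.07 (0.836 to 1.38). DHAR had a lower ratio than each of them. The ratio of DHAR was 0.724 times that of MNSOD (0.658 to 0.796), 0.734 times that of SODCP (0.637 to 0.846) and 0.684 times that of GCAT (0.537 to 0.872). As a description only, since APX counted as measured through the control library and rests on few fragments, its ratio was 0.479 times that of MNSOD (0.261 to 0.845), 0.486 times that of SODCP (0.262 to 0.867) and 0.453 times that of GCAT (0.237 to 0.839). For APX over DHAR it was 0.662 (0.358 to 1.18), so the order of these enzymes of the ascorbate cycle was not resolved. These factors do not depend on how the libraries are scaled to each other. The levels of the ascorbate enzymes relative to MNSOD were lower in the Y. lipolytica library: MNSOD was 14.0 times DHAR in the Y. lipolytica library and 10.2 times in the control library.

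Other genes of the pathway were sought by symbol or synonym, in families of dismutases, peroxidases, thioredoxins, glutaredoxins, alternative oxidases, NADPH oxidases and enzymes of ascorbate synthesis. Besides the 5 enzymes, 5 such genes were found, all measured. None was 2-fold higher or lower, where 6.26% and 3.66% of all measured genes were. Their median log2 ratio was -0.31, against -0.28 over all measured genes. Of these 5 genes, 4 were below 0, as were 73.5% of all measured genes. Symbols or synonyms exist for few genes, so most members of these families may be missing from the list.

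TRX, a thioredoxin, which passes electrons to disulfide bonds, stood at 424 FPKM in the Y. lipolytica library and 529 FPKM in the control library. GRX, a glutaredoxin, which does so with glutathione, stood at 380.2 and 439.7 FPKM. AOX2, an alternative oxidase, which takes electrons from the mitochondrial chain, stood at 104.7 and 129.7 FPKM. TRX, GRX and AOX2 were at 0.802 (0.771 to 0.833), 0.865 (0.843 to 0.887) and 0.807 times the control (0.763 to 0.853), around the median of all genes or slightly above it.

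LOC100250566, with the synonym Trxh, an h-type thioredoxin, was the only gene of the list that was higher in the Y. lipolytica library, at 2146 FPKM against 1752 FPKM in the control library. Its ratio was 1.22 (1.20 to 1.25). LOC100243939, with the synonym Prx, stood at 828 FPKM in the Y. lipolytica library and 1117 FPKM in the control library, a ratio of 0.741 (0.725 to 0.757) close to those of MNSOD and SODCP. The synonym does not show whether it is a peroxiredoxin or another peroxidase.

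**Figure D3:**
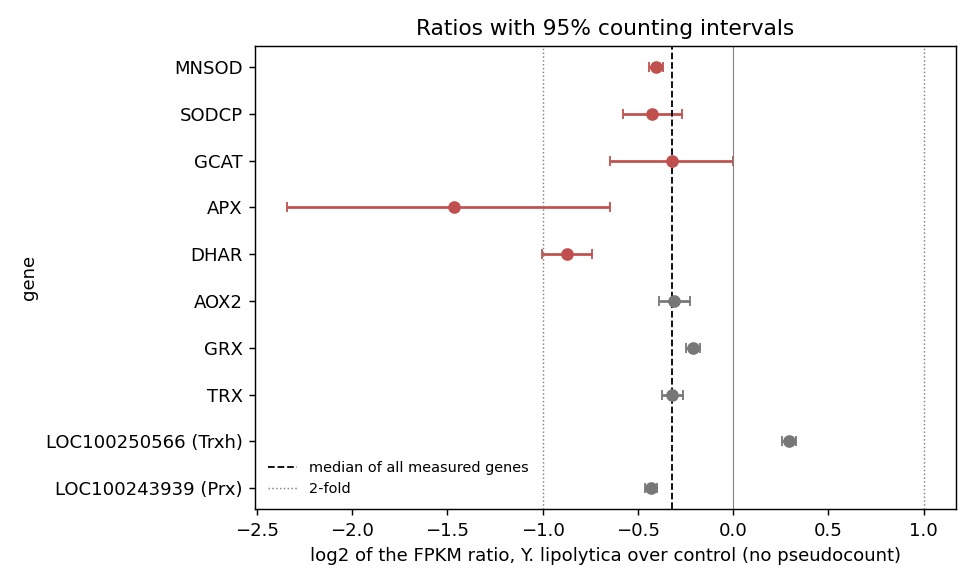
Log2 of the FPKM ratio without pseudocount, Y. lipolytica over control, for the 5 enzymes (red) and 5 other genes of the pathway list (grey), with 95% counting intervals; the dashed line is the median of all measured genes (-0.32 on this scale) and dotted lines mark 2-fold. APX and DHAR lie left of the median with their whole intervals, and LOC100250566 is the only gene right of 0. APX counts as measured through the control library alone.

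By position, no other gene model in the tables overlapped any of the 5 genes on either strand. Whether close copies elsewhere in the genome share their fragments was not tested. MNSOD lies on chromosome 13 (1602976 to 1606551, plus strand), SODCP on chromosome 6 (18276962 to 18280654, plus strand) and APX on chromosome 8 (14111138 to 14113999, minus strand). The sources used here do not give the genome build of these positions. Chromosome numbers are those that a RefSeq gene table gives to over 98% of the matched genes on each sequence. DHAR (21552 to 27530) and GCAT (7544 to 12427) lie on the minus strand of separate scaffolds. The gene model nearest to MNSOD was LOC100250130, 2488 bases away, at 0.149 FPKM in the Y. lipolytica library and 0.123 FPKM in the control library. Nearest to SODCP was LOC100267175, 2460 bases away, at 2.26 and 2.90 FPKM, and nearest to GCAT was LOC109122193, 1471 bases away, at 3.25 and 5.59 FPKM. Nearest to APX was LOC104880081, 2731 bases away, at 1.08 and 1.24 FPKM, while LOC100244913, 2810 bases from DHAR, was listed at 0 in both libraries. These nearest genes were thus low or at 0 in both libraries, also beside the abundant MNSOD.

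Of 324 other measured genes with a symbol, the one nearest in level to each enzyme was found by the distance of log2(FPKM + 1) in the 2 libraries, which is a description of 2 points. For MNSOD it was TIL, at 595 FPKM in the Y. lipolytica library and 730.3 FPKM in the control library (distance 0.08). For SODCP it was SUC12, at 36.4 and 44.5 FPKM (distance 0.10), and for GCAT the mitochondrial orf145, at 4.001 and 5.25 FPKM (distance 0.04). For APX it was the transfer RNA name TRNAW-CCA, at 0.988 and 2.39 FPKM (distance 0.15). DHAR had the most distant match, F3'H, at 47.1 and 64.8 FPKM (distance 0.28).

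Relative to the median of all genes, DHAR lay between -0.70 and -0.54 on the log2 scale over the reported value and 9 other ways of processing. MNSOD lay between -0.25 and -0.08, and SODCP between -0.26 and -0.10. GCAT lay between -0.11 and 0.02 and changed sign with the setting. APX, the scarcest, lay between -1.04 with a pseudocount of 0.1 and -0.14 with a pseudocount of 5. Rescaling moves a gene and the median alike, apart from the pseudocount, and for a gene that is kept a filter moves only the median. These settings fixed much of such ranges in advance and check the ratios little. In the authors' deposited table of 1 value per gene, the ratios were 0.755 for MNSOD, 0.745 for SODCP, 0.799 for GCAT, 0.373 for APX and 0.550 for DHAR. Levels in the authors' deposited table are not comparable between genes, since its control value was 0.475 times the FPKM for MNSOD and 1.41 times for GCAT. For MNSOD, SODCP and GCAT this multiple was the same in both libraries. Their ratios there thus had to equal the FPKM ratios and are no independent check. The DHAR ratio there, 0.550, equals that of its spliced model, so it is no independent check either.

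**Figure D4:**
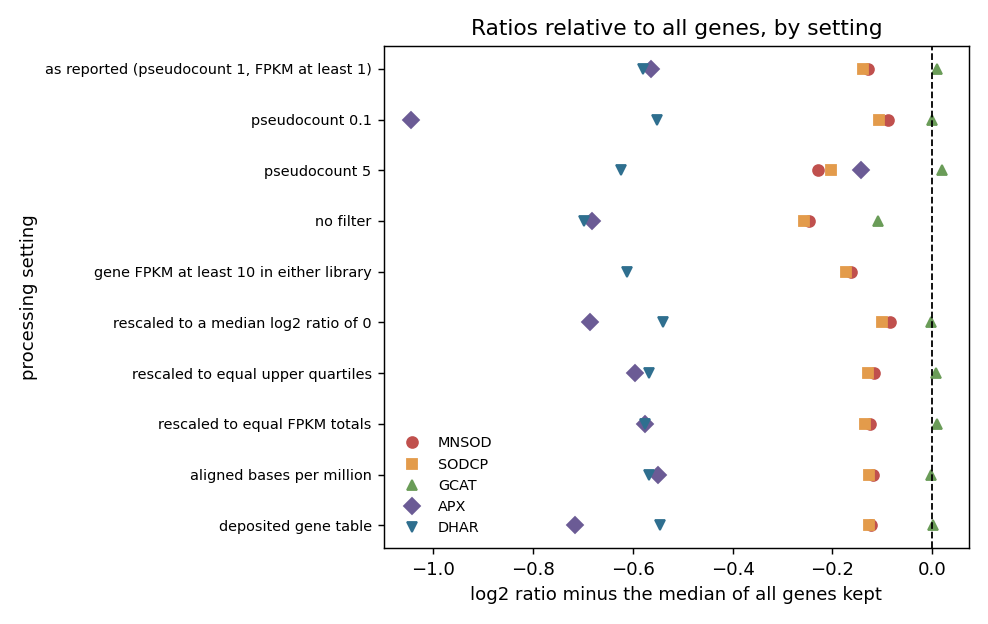
Log2 ratio of each enzyme minus the median of all genes kept, Y. lipolytica over control, under the reported processing and 9 alternatives; a gene below a setting's filter has no point. DHAR lies between -0.70 and -0.54, MNSOD and SODCP lie near each other in every setting, and APX moves most, from -1.04 to -0.14. Rescaling and filter settings are little check, since they move mainly the median or both alike.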

How the data were processed

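RNA from 2 grape libraries was compared, 1 per group. The submitters' processing notes name HISAT2 and HTSeq 0.6.1 without their roles; the genome build and annotation are not given in the sources used here. Per the file headers, the authors' tables give each transcript model a gene name, FPKM and its mean coverage per base, a signal that grows with depth. The authors' deposited gene table, treated as a score because its values relative to FPKM differ from gene to gene, served as an alternative.

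FPKM was summed per gene name, or per locus where there is none. Ratios are Y. lipolytica over control, plain or as log2(FPKM + 1), and 2-fold on the log2 scale was the call. Aligned bases (coverage times length) were divided by 300, taken as a pair of 150-base reads: 38.0% and 37.7% of single-transcript genes with under 10 reads lay within 1 base of a multiple of 150 in the Y. lipolytica and control libraries, against 2% if spread evenly. Intervals of ratios are exact binomial 95% intervals on these fragment equivalents, with their relative width applied to the FPKM ratio. Python 3.11.15 and scipy 1.17.1 were used, and the calculation was tested on simulated Poisson counts, which hold counting error only. Changes were planted only in genes with a mean FPKM of at least 10, so genes as low as GCAT and APX were not covered.

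The genes and lists were chosen with earlier results of these data known. Genes named were all 5 enzymes and their transcripts, all measured genes of the pathway list, and the nearest symbol to each enzyme; markers, neighbours and genes of the closing section were added. A list by product name could not be made, since the RefSeq table (26276 of 29498 gene names matched) holds none, and no sequences are shown. Its assembly, ASM3070453v1, may differ from that of the files.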

Additional observations from a re-analysis of the deposited data

How the results depend on the processing

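No paired analysis was possible because the groups share no replicate: each is a single library without a test, and none could be left out. The 9 alternatives moved no sign of any of the 5 enzymes' ratios, though GCAT came to -0.00 (log2) after rescaling to a median of 0. With a pseudocount of 0.1, APX was at -1.36, which made it the 1 enzyme past 2-fold, and the median of all genes was -0.32, with 2791 genes past 2-fold (44.8% of them higher) against 1591 as reported (63.1%). With a pseudocount of 5, APX was at -0.32, the median at -0.17 and the count 738 (84.3% higher). Without a filter the median was -0.16. With an FPKM of at least 10 it was -0.24, with 926 genes past 2-fold (74.9% higher), and GCAT and APX had no value. Rescaling to a median of 0 put MNSOD at -0.084, SODCP at -0.10, DHAR at -0.54, the median of all genes at 0 and that of the 10 pathway genes at -0.042, against -0.36 as reported. Equal upper quartiles put MNSOD at -0.32 and the median at -0.21, equal FPKM totals put the median at -0.25, and aligned bases put it at -0.30. Among the other 60 values, ratios of the enzymes stayed within their counting interval and counts within 1.5 times the reported count. Medians among them have no such interval. A change of filter cannot move the ratio of a gene that is kept, so the filter settings do not check the enzymes' ratios. Depth limits APX most.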

Other observations

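A few genes of other antioxidant and carotenoid routes, picked by symbol after the values of the 5 enzymes were seen, were also read. HGGT, an enzyme of tocotrienol (vitamin E) synthesis, stood at 2.38 FPKM in the Y. lipolytica library and 5.35 FPKM in the control library, 0.444 times the control (0.340 to 0.577). ZEP, the zeaxanthin epoxidase of the xanthophyll route, stood at 1.25 FPKM in the Y. lipolytica library and 3.13 FPKM in the control library, 0.398 times (0.282 to 0.555). BCH1, a beta-carotene hydroxylase of the same route, stood at 6.11 FPKM in the Y. lipolytica library and 5.01 FPKM in the control library, 1.22 times (0.941 to 1.58). HGGT and ZEP were thus lower than the median gene, with log2 ratios of -0.91 and -0.88. BCH1 was higher than the median gene, at 1.52 times its ratio (1.18 to 1.98). A further gene read, PPO, stood at 0 FPKM in both libraries.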
